A study of Mus musculus with 2 samples.

Results

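Arginine and itaconate metabolism in the tumors was followed through 7 genes, Slc7a2, Arg1, Arg2, Nos2, Ass1, Odc1 and Acod1, which were found by symbol among the 32285 genes of the count matrices. All 7 were present and each had at least 50 UMIs in the cells kept. UMIs are unique molecular identifiers, so that each one counts 1 captured mRNA molecule. To form the tumors, cells of KPC, a pancreatic cancer line of the mouse, had been injected into the pancreas of male mice, and whole dissociated tumors were profiled as single cells. There was 1 library per group. The FLOX library came from control mice with floxed MCT1 (gene symbol Slc16a1), a lactate transporter. The library labelled MCT1-KO came from Col1a2-CreERT2 mice in which tamoxifen was given to delete floxed MCT1 before the tumor cells were injected. Corn oil is the vehicle named for the control injections, and whether the FLOX mice carried the Cre is not stated. Cre was driven by the Col1a2 promoter, so the deletion was aimed at collagen-producing stromal cells such as pancreatic stellate cells (PSCs), and neither the injected tumor cells nor most immune cells were its target. The age of the mice and the number of animals behind each library are not given for these libraries in the sources used here.

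Arginine stands at a branch point. Arginases split it into ornithine and urea, and ornithine feeds polyamines and proline, whereas nitric oxide synthase turns it into citrulline and nitric oxide, a radical toxic to microbes and tumor cells. Itaconate is made from an intermediate of the TCA cycle in activated myeloid cells and inhibits succinate dehydrogenase. Arg1 and Nos2 are textbook markers of alternatively and classically activated macrophages, and arginase of tumor myeloid cells is known to deprive T cells of arginine.

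The 7 genes lie apart in the genome, and their positions on build GRCm38 (GENCODE vM21, used for positions alone) are given where each gene is described. The RefSeq table of windows around gene starts (250 bases before to 50 after, GRCm38.p6) held 3 of them, which are printed here. They include a gene found mainly in myeloid cells (Acod1), one at low levels in many classes (Ass1) and one with UMIs in every class (Odc1). Capitals mark the TATA box TATAAA, the GC box known to be read by Sp1 family factors, GGGCGG, and the E-box letters of Myc family factors, CACGTG, on either strand, and each window reads 5′ to 3′ on the + strand, which is the strand of all 3 genes. The windows are chr14:103046762-103047061 for Acod1, chr2:31470020-31470319 for Ass1 and chr12:17544623-17544922 for Odc1.
Acod1: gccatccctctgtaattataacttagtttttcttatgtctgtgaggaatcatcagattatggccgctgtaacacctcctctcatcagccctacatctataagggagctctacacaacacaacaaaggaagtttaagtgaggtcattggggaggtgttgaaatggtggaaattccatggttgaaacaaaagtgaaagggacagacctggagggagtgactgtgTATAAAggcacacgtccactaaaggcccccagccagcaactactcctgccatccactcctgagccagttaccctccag
Ass1: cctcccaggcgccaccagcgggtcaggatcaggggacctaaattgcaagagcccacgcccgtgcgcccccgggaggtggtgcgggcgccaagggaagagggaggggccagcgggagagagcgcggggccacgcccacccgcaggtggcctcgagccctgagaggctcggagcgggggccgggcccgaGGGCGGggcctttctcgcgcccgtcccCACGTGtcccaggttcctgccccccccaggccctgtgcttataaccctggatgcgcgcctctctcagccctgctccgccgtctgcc
Odc1: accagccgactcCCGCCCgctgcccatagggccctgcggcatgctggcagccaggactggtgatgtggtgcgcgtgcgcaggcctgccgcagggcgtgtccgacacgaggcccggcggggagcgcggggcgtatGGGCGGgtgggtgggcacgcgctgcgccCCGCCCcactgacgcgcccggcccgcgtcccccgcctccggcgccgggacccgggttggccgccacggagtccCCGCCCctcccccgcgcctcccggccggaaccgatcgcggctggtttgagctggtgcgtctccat
The Acod1 window held TATAAA, with its first base at -28 from the start site, and CCAAT at -107. The Ass1 window held GGGCGG at -63 and CACGTG at -36, and the Odc1 window held GGGCGG at 4 places. Of all 32851 windows, 13.6% held the TATA box, 35.7% the GC box, 7.15% the E-box and 37.4% the CCAAT box. GGGNNTTCC, a pattern that resembles NF-kB sites, and TTGCNNAA, a core known for C/EBP factors, were searched on both strands like the others. They were in none of the 3 windows and in 5.82% and 10.8% of all windows. NF-kB sites with other letters or another spacing, among them longer ones, were not searched. The windows may hold such sites, and the absence of GGGNNTTCC says nothing about them. CpG dinucleotides numbered 2 in the Acod1 window, 27 in that of Ass1 and 42 in that of Odc1, against a median of 7 over all windows. Positions are counted from the start site of the RefSeq window, which for all 3 genes lies downstream of the GENCODE gene start printed below. Some matches placed before the start site, among them TATAAA of Acod1, thus lie inside the GENCODE gene. A match is a description of these letters and no evidence of binding. The windows of Arg1, Arg2, Nos2 and Slc7a2 were not analysed here.

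The targeted gene went against the label. Slc16a1 had 57 UMIs in the PSC-like cells under the FLOX label and 113 in those of the library labelled MCT1-KO, 25.6 and 35.7 CPM (UMIs of the gene per 1000000 UMIs of the class), a ratio of 1.4 (95% interval 1.01 to 1.96). All ratios are the library labelled MCT1-KO over FLOX. The higher Slc16a1 was not particular to PSC-like cells. Its ratio was above 1 in all 8 classes compared. It was 1.19 (1.08 to 1.32) in ductal-like cells and 1.24 (1.13 to 1.37) in ductal/PSC unnamed cells. Macrophage-like cells were higher too, at 7.30 CPM in FLOX and 10.8 CPM in the other library. In T/NK-like, dendritic-like, endothelial-like and neutrophil-like cells the interval included 1. A 3′ tag outside the deleted part would not report the deletion, so these counts do not settle the genotype. The direction of every ratio below is that of the labels. The cells kept numbered 8739 in the FLOX library, with 61149689 UMIs, and 11689 in the other, with 81494894, and 59 kept barcodes occurred in both. Heat shock genes were lower in the library labelled MCT1-KO in 7 of 8 classes (ratios 0.547 to 0.710) and alike in neutrophil-like cells (0.993), and acinar genes were 14.4 to 32.7 times higher in it in all 8. In barcodes of 10 to 100 UMIs, which mostly hold free RNA, Arg1 stood at 78.5 and 34.6 CPM, Acod1 at 30.3 and 18.2, Arg2 at 7.81 and 9.21, Nos2 at 2.28 and 0.791, Slc7a2 at 5.69 and 4.27, Ass1 at 17.9 and 19.6, and Odc1 at 265 and 247 (FLOX first, here and below). The share of a class's UMIs that is free RNA was estimated by taking all its UMIs of a marker list of another class as free, and the estimates differed by list. Acinar genes gave 58.7% and 37.8% for neutrophil-like cells and 36.0% and 13% for macrophage-like cells (named below). Macrophage markers gave 16.0% and 16.8% for neutrophil-like cells, and T/NK markers 10.8% and 7.73% for macrophage-like cells, the lowest of the lists tried. Arg1 in neutrophil-like cells, at 13.2 CPM (7.69 to 21.1) and 9.91 CPM (4.53 to 18.8), allows 16.8% (9.79 to 26.9) and 28.6% (13.1 to 54.3), so the acinar share for FLOX neutrophil-like cells lay above what their Arg1 allows. With the lowest shares subtracted the ratios of macrophage-like cells were 0.769 for Arg1 (0.789 as counted) and 0.720 for Acod1 (0.739), and those of neutrophil-like cells 0.396 for Acod1 (0.392) and 1.41 for Arg2 (1.4). With the acinar shares they were 0.602, 0.567, 0.260 and 0.932. Leaving mitochondrial, heat shock and acinar genes out of the totals gave 0.789, 0.739, 0.396 and 1.41 for these ratios. For other ratios the part of free RNA is given only where stated.

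Cells were clustered without the 7 genes and named from marker lists. Macrophage-like cells (C1qa, C1qb and C1qc leading) numbered 2557 and 2217, with a median of 5906 and 4859 UMIs, and neutrophil-like cells (S100a8, S100a9 and Retnlg leading) 755 and 705, with a median of 1471 and 1074. Ductal-like cells numbered 866 and 1594, PSC-like cells 231 and 417, T/NK-like cells 533 and 482, and 1263 and 2059 cells with ductal and PSC markers alike were kept as a ductal/PSC unnamed group. With 1 library per group no test was possible, and the 95% intervals given with CPM, shares and ratios (exact Poisson, exact binomial and conditional exact) cover counting error only, not differences between animals.

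**Figure D1:**
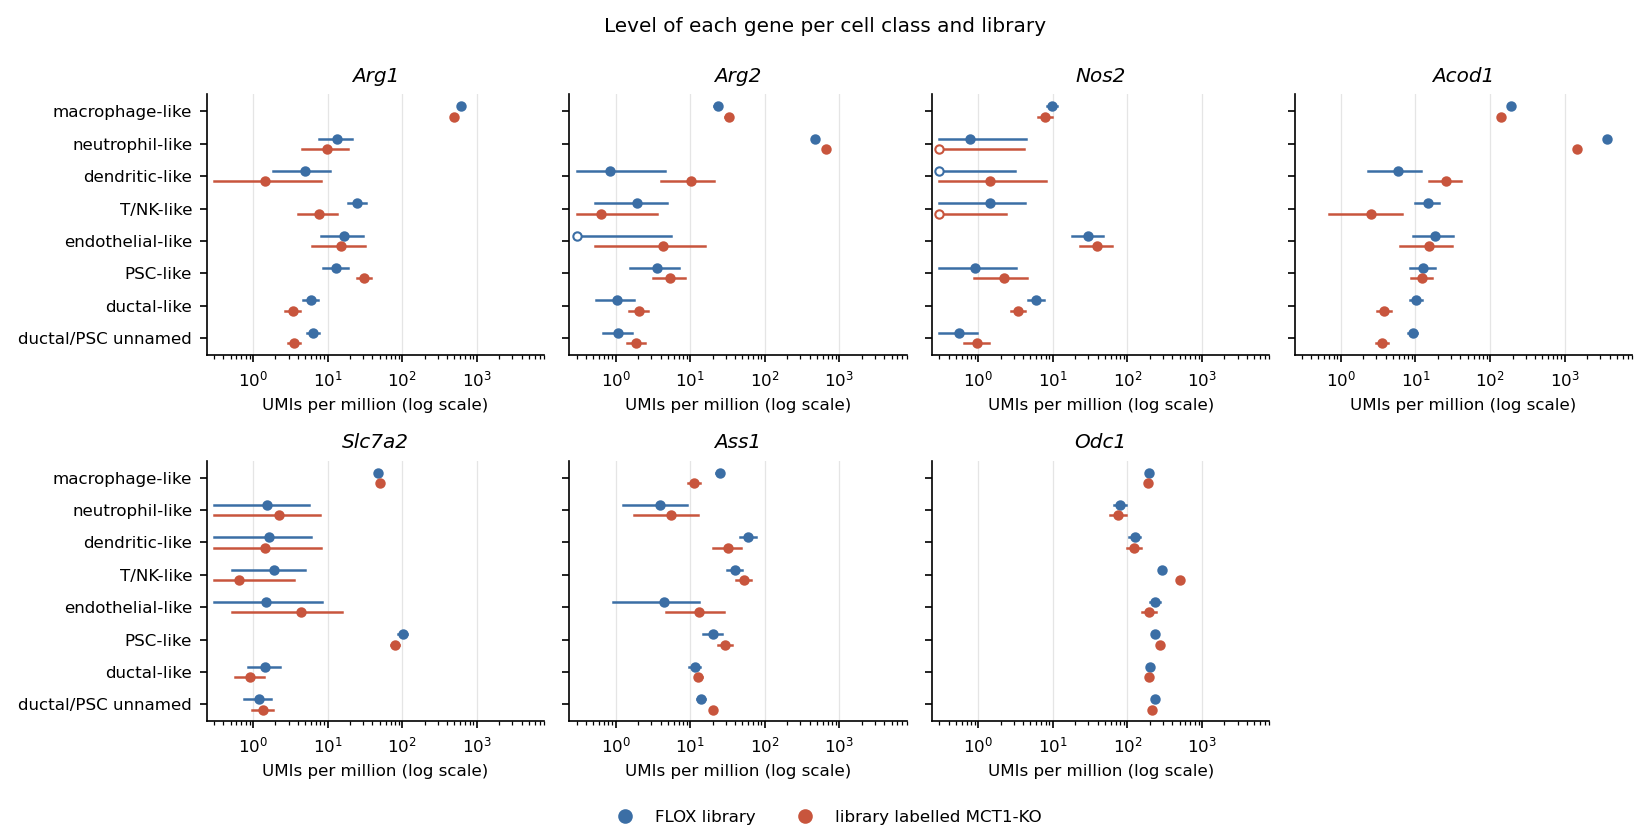
Level of each gene in CPM (log axis) by cell class, with 1 point per library and exact Poisson 95% intervals for counting error (open points at the edge: 0 UMIs). Arg1 peaks in macrophage-like cells (623 and 492 CPM), Acod1 (3701 and 1453) and Arg2 (474 and 662) peak in neutrophil-like cells, and Odc1 is between 74.9 and 506 CPM in the classes shown.

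Slc7a2 (ENSMUSG00000031596, chr8:40862396-40922308, + strand) encodes CAT2, a transporter that brings cationic amino acids such as arginine into the cell. It was found mainly in PSC-like and macrophage-like cells. PSC-like cells had 227 UMIs under the FLOX label and 251 in the library labelled MCT1-KO, 102 CPM (89.0 to 116) against 79.3 CPM (69.8 to 89.8), for a ratio of 0.779 (0.648 to 0.936). The summed PSC markers of these cells were lower as well, at 26087 and 19124 CPM, and their part in this ratio was not tested. After thinning, an Slc7a2 UMI was in 5.80% and 6.25% of PSC-like cells at 1000 UMIs and in 17.9% and 12.7% at 2000 UMIs, with overlapping intervals at both depths. Macrophage-like cells had 741 and 609 UMIs, 47.4 CPM (44.1 to 51.0) against 51.1 CPM (47.2 to 55.4), with a ratio of 1.08 (0.967 to 1.2), an interval that includes 1. That ratio moved with the processing, to 1.29 (1.15 to 1.44) without likely doublets, 1.21 (1.08 to 1.34) without integration, 1.21 (1.07 to 1.37) with classes set per cell, 1.15 (1.03 to 1.28) with no upper gene limit and 0.820 or 1.05 with free RNA subtracted by the acinar or the lowest share, so no direction is given for it. PSC-like cells thus stood above macrophage-like cells in both libraries, but they were few, and macrophage-like cells held 71.0% and 63.4% of all Slc7a2 UMIs in kept cells against 21.7% and 26.1% in PSC-like cells. At most 0.375% of T/NK-like cells had an Slc7a2 UMI, at a median depth of 2999 and 2438.5 UMIs. In ductal-like cells, deeper at 18032 and 17880 UMIs, the shares were 1.96% and 1.19%. PSC-like cells (30.7% and 21.8% of cells) and macrophage-like cells (11.8% and 10.4%) were above both, at depths between those of these 2 classes.

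Arg1 (ENSMUSG00000019987, chr10:24915221-24927484, - strand) is the cytosolic arginase. Macrophage-like cells held 95.4% (95.0 to 95.8) of its UMIs in FLOX and 93.6% (93.0 to 94.2) in the library labelled MCT1-KO. Their 9738 and 5857 UMIs came to 623 CPM (611 to 636) against 492 CPM (479 to 505), and the ratio was 0.789 (0.763 to 0.815). An Arg1 UMI was present in 35.3% and 33.1% of these cells, or in 18.2% and 16.9% once each cell was thinned to 1000 UMIs (191 and 121 shallower cells left out), against 2.63% and 2.07% of T/NK-like cells before thinning. Arg1 was thus held mostly by macrophage-like cells, in a minority of them, and was lower in CPM in the library labelled MCT1-KO, beyond counting error.

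Outside macrophage-like cells Arg1 was rare, and its level in neutrophil-like, T/NK-like, PSC-like, ductal-like and ductal/PSC unnamed cells was below that of free RNA in the same library. Neutrophil-like cells had 17 and 9 UMIs, never more than 1 per cell. T/NK-like cells had 52 and 12 UMIs (25.1 and 7.67 CPM), but 36 of the 52 sat in 1 cell. Without the T/NK-like cells whose macrophage markers exceeded 1000 CPM, 9 and 7 UMIs remained and the ratio went from 0.305 (0.148 to 0.579) to 0.805 (0.255 to 2.43). PSC-like cells had 29 and 98 UMIs (13 and 31 CPM), a ratio of 2.38 (1.56 to 3.74), while the share of PSC-like cells with a UMI went the other way, 8.66% against 6.47%. In PSC-like cells with macrophage markers at or under 1000 CPM the Arg1 counts were 16 and 35, of which 1 cell of the library labelled MCT1-KO held 24, and the ratio was 1.25 (0.674 to 2.42), and in those above that limit it was 4.70 (2.56 to 9.31). These small Arg1 counts in stromal and lymphoid cells thus rested on few cells. The summed macrophage markers of PSC-like cells were at 1972 and 1851 CPM, and their Arg1 stood at 13.3 and 16.6 CPM in the cells at or under 1000 CPM of these markers and at 12.7 and 59.6 CPM in the cells above it.

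Arg2 (ENSMUSG00000021125, chr12:79130777-79156301, + strand) is the mitochondrial arginase, made outside the liver in many cells. Neutrophil-like cells held 58.5% and 51.4% of its UMIs. Their counts were 610 and 601, 474 CPM (437 to 513) against 662 CPM (610 to 717), for a ratio of 1.4 (1.25 to 1.57). The share of neutrophil-like cells with an Arg2 UMI was 45.4% and 50.5%, and 36.4% and 47.0% after thinning to 1000 UMIs, but 54.2% (52 of 96 cells) and 29.4% (10 of 34) after thinning to 2000 UMIs, which left out most cells, against 0.563% and 0.207% of T/NK-like cells without thinning. Macrophage-like cells had 365 and 389 UMIs, 23.4 CPM (21.0 to 25.9) against 32.7 CPM (29.5 to 36.1), with a ratio of 1.4 (1.21 to 1.62). The 2 arginases thus differed in the cells that held them. In CPM as counted, in macrophage-like cells Arg1 was lower and Arg2 higher in the library labelled MCT1-KO, and Arg2 was also higher in its neutrophil-like cells. Over all kept cells Arg2 was at 17.1 and 14.4 CPM. Macrophage-like cells were 29.3% and 19.0% of these cells and neutrophil-like cells 8.64% and 6.03%. Arg2 was also higher in the library labelled MCT1-KO in ductal-like cells (ratio 1.97, 1.05 to 3.96) and ductal/PSC unnamed cells (1.73, 1.04 to 2.98). Free RNA held it at 7.81 and 9.21 CPM. It was lower in T/NK-like cells (4 and 1 UMIs) and B-like cells (7 and 5 UMIs). The higher Arg2 was thus not particular to myeloid cells. The Arg2 ratio of neutrophil-like cells was 1.24 to 1.5 under every other setting tried except the subtraction with the acinar share (0.932). Their Arg1 level does not allow that share in FLOX. The share at 2000 UMIs, which went the other way, rests on 34 cells of the library labelled MCT1-KO, with overlapping intervals (43.7 to 64.4 and 15.1 to 47.5).

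Nos2 (ENSMUSG00000020826, chr11:78920787-78960254, + strand) is the inducible nitric oxide synthase. Its counts were low everywhere, 265 and 242 UMIs in all kept cells. Macrophage-like cells had 152 and 94 of them, in 73 and 41 cells (2.85% and 1.85%), 9.73 CPM (8.25 to 11.4) against 7.89 CPM (6.38 to 9.66), for a ratio of 0.811 (0.620 to 1.06), an interval that includes 1. In T/NK-like cells 0.563% had a Nos2 UMI in FLOX and 0 of 482 in the other library, which allows a share of cells with a UMI of up to 0.622% by a limit of 3 counts. Ductal-like cells, named from keratins and other epithelial markers, had 75 and 82 UMIs, 5.98 and 3.42 CPM, a ratio of 0.571 (0.413 to 0.792), and these sat in 20 and 27 cells, with up to 15 and 20 in 1 cell. Arg1 happened to have the same totals in this class, but spread over 58 and 54 cells. Nos2 in ductal-like cells was thus a matter of a few cells with many UMIs. The ductal markers of these cells were at 1731 and 2036 CPM, below their macrophage markers at 4359 and 3057 CPM. Their macrophage markers and neutrophil markers (218 and 79.4 CPM) were lower in the library labelled MCT1-KO, as were Nos2, Arg1 and Acod1. In macrophage-like cells the same macrophage markers were at 20849 and 19719 CPM. Arg1 was at 623 and 492 CPM there, against 5.98 and 3.42 CPM in ductal-like cells. The part of cells with these markers in the ductal-like ratios was not tested. Endothelial-like cells had the highest Nos2 level, 30.0 CPM (18.3 to 46.4) and 39.1 CPM (23.2 to 61.8), from 20 and 18 UMIs. In neutrophil-like cells 1 UMI was found in the FLOX library and 0 of 705 cells had one in the other, which by the same limit allows a share of cells with a UMI of up to 0.426%. Both limits concern cells with a UMI at these depths, not cells that express Nos2.

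Ass1 (ENSMUSG00000076441, chr2:31470207-31520672, + strand) encodes argininosuccinate synthase, which starts the return of citrulline to arginine. In macrophage-like cells it was lower in the library labelled MCT1-KO, with 386 and 134 UMIs, 24.7 CPM (22.3 to 27.3) against 11.3 CPM (9.43 to 13.3), for a ratio of 0.455 (0.371 to 0.556). The share of cells with a UMI was 10.5% and 4.92%, against 0.530% and 0.567% of the shallower neutrophil-like cells. Dendritic-like cells had 72 and 22 UMIs, 59.8 and 31.8 CPM, a ratio of 0.531 (0.314 to 0.867). The direction was not common to all classes. Ductal/PSC unnamed cells had 280 and 615 UMIs, 13.9 and 20.4 CPM, a ratio of 1.47 (1.27 to 1.70), PSC-like cells had a ratio of 1.46 (1.01 to 2.13), and T/NK-like cells, with 82 UMIs in each library, one of 1.32 (0.962 to 1.82). Macrophage-like cells held 35.1% of Ass1 UMIs in FLOX and 9.42% in the other library. They were also a smaller share of kept cells there, 29.3% and 19.0%, and the part of this in the lower share was not tested. Free RNA held Ass1 at 17.9 and 19.6 CPM. Macrophage-like cells were above that level in FLOX and below it in the library labelled MCT1-KO. Ductal-like cells (11.5 and 12.8 CPM) were below it in both libraries, and dendritic-like, T/NK-like and PSC-like cells were above it in both. For PSC-like cells of FLOX the interval (14.7 to 27.0) included the free RNA level. Ductal/PSC unnamed cells were below it in FLOX and at 20.4 CPM (18.8 to 22.1) near it in the library labelled MCT1-KO.

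Odc1 (ENSMUSG00000011179, chr12:17544794-17551505, + strand) encodes ornithine decarboxylase, which makes the polyamine putrescine from ornithine and is induced in dividing cells. Its UMIs were found in every class, but free RNA held it at 265 and 247 CPM, and of the classes with at least 50 cells in both libraries T/NK-like cells alone were above free RNA in both. PSC-like cells (236 and 270 CPM) were above it in the library labelled MCT1-KO alone. In macrophage-like cells its 3061 and 2232 UMIs came to 196 CPM (189 to 203) against 187 CPM (180 to 195), with a ratio of 0.956 (0.905 to 1.01). The cells that stood apart were T/NK-like, with 604 and 792 UMIs, 292 CPM (269 to 316) against 506 CPM (472 to 543), and the ratio was 1.73 (1.56 to 1.93). Their summed T/NK markers were at 8631 and 6613 CPM and their macrophage markers at 1207 and 660 CPM, and the part of these in the ratio was not tested. This was the highest level of Odc1 in any class. Neutrophil-like cells had the lowest level among the classes with at least 50 cells in both libraries, 80.0 and 74.9 CPM. Ductal-like cells (199 and 195 CPM), ductal/PSC unnamed cells (231 and 215) and dendritic-like cells (125 and 124) had ratios between 0.933 and 0.997.

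Acod1 (ENSMUSG00000022126, chr14:103046977-103056573, + strand) encodes the enzyme that makes itaconate from cis-aconitate. Neutrophil-like cells had 4767 UMIs under the FLOX label and 1319 in the library labelled MCT1-KO, 3701 CPM (3597 to 3808) against 1453 CPM (1375 to 1533), for a ratio of 0.392 (0.369 to 0.417). An Acod1 UMI was present in 78.0% and 56.2% of neutrophil-like cells, and in 72.6% and 55.3% after thinning to 1000 UMIs, which left out 54 and 269 cells. In T/NK-like cells the shares were 2.06% and 0.830% before thinning. Neutrophil-like cells of the library labelled MCT1-KO thus had an Acod1 UMI less often and had fewer of them, beyond counting error.

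Macrophage-like cells were the other source of Acod1, with 2937 and 1655 UMIs, 188 CPM (181 to 195) against 139 CPM (132 to 146), with a ratio of 0.739 (0.695 to 0.785). The neutrophil-like share of all Acod1 UMIs was 57.6% (56.5 to 58.7) in FLOX, 39.5% (37.9 to 41.2) in the other library, and the macrophage-like share was 35.5% and 49.6%. Ductal-like cells (10.1 and 3.83 CPM, ratio 0.379) and ductal/PSC unnamed cells (9.22 and 3.58 CPM, ratio 0.388) had Acod1 levels below that of free RNA, and PSC-like cells had a ratio of 0.981 (0.589 to 1.66).

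The neutrophil-like cells of the 2 libraries also differed in other genes. The granule genes Ngp, Camp and Ltf, made by immature neutrophils, summed to 7306 and 3147 CPM. A UMI of one of them was in a similar share of cells, 15.6% and 15.3%, so the sums were carried by a minority, and Ngp was in fewer FLOX cells (4.24% and 8.51%). Csf3r, the receptor of the growth factor G-CSF, stood at 1076 and 542 CPM. The chemokine gene Cxcl2 was at 29971 and 12948 CPM and the cytokine gene Il1b at 15722 and 12127 CPM, so several other genes of these cells were lower as well. The sum of the 12 listed neutrophil markers, Csf3r among them, was not lower, at 84472 and 85920 CPM. In FLOX it was 108794 UMIs, where S100a8 and S100a9 had 47147 and 43076 UMIs over all kept cells. The sum thus does not speak for each marker. Whether Acod1 moved apart from the lower genes was not tested. In the 637 and 597 neutrophil-like cells with no UMI of a granule gene, Acod1 was at 4242 and 1682 CPM, a ratio of 0.397 (0.371 to 0.424), so the Acod1 ratio was as far below 1 without those cells. Arg2 there was at 532 and 788 CPM, a ratio of 1.5 (1.31 to 1.68).

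**Figure D2:**
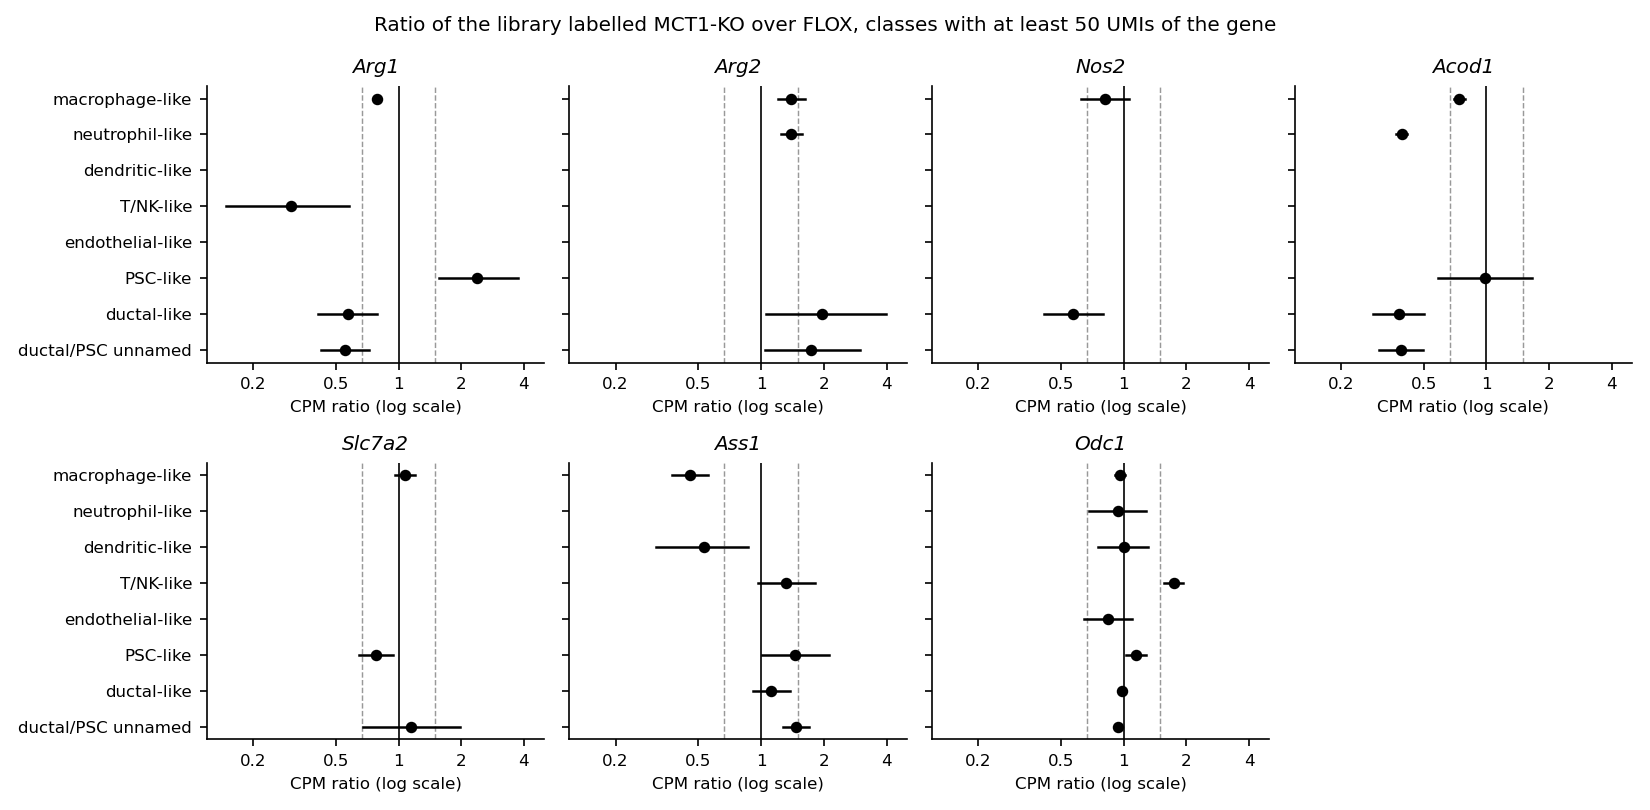
CPM in the library labelled MCT1-KO over CPM in the FLOX library (log axis) for each gene in the classes where it had at least 50 UMIs over both libraries, with conditional exact 95% intervals for counting error, a line at 1 and dashed lines at 1.5-fold either way. The outermost points are Arg1 in T/NK-like cells (0.305, from 52 and 12 UMIs) and in PSC-like cells (2.38, from 29 and 98 UMIs). Acod1 in ductal-like cells (0.379) and neutrophil-like cells (0.392) and Ass1 in macrophage-like cells (0.455) are also to the left. To the right are also Arg2 in ductal-like cells (1.97), Odc1 in T/NK-like cells (1.73) and, inside the dashed line, Arg2 in neutrophil-like cells (1.4).

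The ratios were read against those of all genes with at least 50 UMIs in the class over both libraries. In macrophage-like cells 8.87% of genes were higher by 1.5-fold or more in the library labelled MCT1-KO and 8.97% lower, and of the 7 genes 0 were higher and 1, Ass1, lower, with a median ratio of 0.811 against 1.02 over all genes. In neutrophil-like cells 14.6% of genes were higher and 10.4% lower, and of the 3 genes counted (Arg2, Acod1 and Odc1) 1, Acod1, was lower. In T/NK-like cells 6.33% and 9.44% were past that fold, with Odc1 higher and Arg1 lower among 3 genes counted. In dendritic-like cells 9.24% and 12.7% were, with Ass1 lower among 2. In endothelial-like cells 7.06% and 14.2% were, and Odc1, the 1 gene counted there, was not (0.844). In PSC-like cells 9.9% and 11.1% were, with Arg1 higher and 0 lower among 5. In ductal-like cells 4.75% of genes were higher and 7.24% lower, and of 6 genes counted Arg2 was higher and Arg1, Nos2 and Acod1 lower. In ductal/PSC unnamed cells 5.61% were higher and 6.9% lower, with Arg2 higher and Arg1 and Acod1 lower among 6. In macrophage-like cells the share past 1.5-fold was thus close to that of all genes, while in ductal-like cells 3 of 6 stood beside 7.24%, at levels below free RNA for Arg1 and Acod1 and in few cells for Nos2.

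Macrophage-like cells were made of 4 clusters, and the genes were spread unevenly over them. Cluster 6, led by Ccl8, Lyz2, C1qb, Saa3 and C1qc, made up 29.3% and 30.3% of macrophage-like cells. It held 7315 and 4430 Arg1 UMIs, 71.7% and 70.8% of those in all kept cells, at 1389 and 1234 CPM, and 51.3% and 47.4% of its cells had one. The other clusters were lower in Arg1, with 155 and 170 CPM in cluster 2, 106 and 110 in cluster 10 and 555 and 301 in cluster 13. Cluster 6 also held 51.0% and 50.7% of all Slc7a2 UMIs, at 101 and 136 CPM, against 8.33 to 41.4 CPM in the other 3 clusters. Its Nos2 UMIs numbered 112 and 67, at 21.3 and 18.7 CPM, next to 12.4 and 19.3 CPM in cluster 13 (27 and 21 UMIs). The arginine transporter and the cytosolic arginase were thus highest in the same macrophage-like cluster in both libraries, and most Nos2 UMIs of macrophage-like cells lay there too. The 21 Nos2 UMIs of cluster 13 in the library labelled MCT1-KO were in 4 cells, 14 of them in 1, so its level rests on few cells. The summed monocyte markers of cluster 6 were at 1985 and 2981 CPM, the highest of the 4 clusters in both libraries, and its neutrophil markers at 554 and 682 CPM.

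The ratios between libraries varied among these clusters, though the difference was not tested. For Arg1 the ratio was 0.889 (0.856 to 0.922) in cluster 6, 1.10 (1.00 to 1.2) in cluster 2, 1.03 in cluster 10 and 0.543 (0.479 to 0.614) in cluster 13. For Acod1 it was 1.04 (0.970 to 1.12) in cluster 6, at 360 and 374 CPM, but 0.399 (0.330 to 0.480) in cluster 2, 0.395 (0.312 to 0.495) in cluster 13 and 0.633 in cluster 10, and without cluster 6 it was 0.371 (0.326 to 0.422). The lower Acod1 of macrophage-like cells therefore lay outside cluster 6. Ass1 went the other way, with a ratio of 0.273 (0.191 to 0.380) in cluster 6, at 42.9 and 11.7 CPM, and 0.715 (0.547 to 0.930) without it. Arg2 had a ratio of 1.82 (1.46 to 2.26) in cluster 6, 1.33 (1.05 to 1.68) in cluster 2, 1.54 (0.785 to 3.24) in cluster 10 and 0.668 (0.346 to 1.22) in cluster 13. Slc7a2 had one of 1.34 (1.19 to 1.52) in cluster 6, 0.891 (0.650 to 1.21) in cluster 2, 1.66 (0.770 to 3.98) in cluster 10 and 0.490 (0.293 to 0.788) in cluster 13, so it lay on opposite sides of 1 in clusters 6 and 13. Cluster 13 made up 9.11% and 5.82% of macrophage-like cells and cluster 10 made up 15.5% and 19.2%. The Arg1 ratio of the whole class (0.789) lay below those of clusters 2, 6 and 10. The part of the cluster mix in it was not tested. Neutrophil markers of cluster 13 were at 876 and 295 CPM, lower in the library labelled MCT1-KO like its Acod1 and Arg1. In cluster 2 these markers were at 260 and 321 CPM, higher in that library, while its Acod1 was lower. Arg1 of neutrophil-like cells stood at 13.2 and 9.91 CPM. The part of neutrophil markers in these ratios was not tested.

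**Figure D3:**
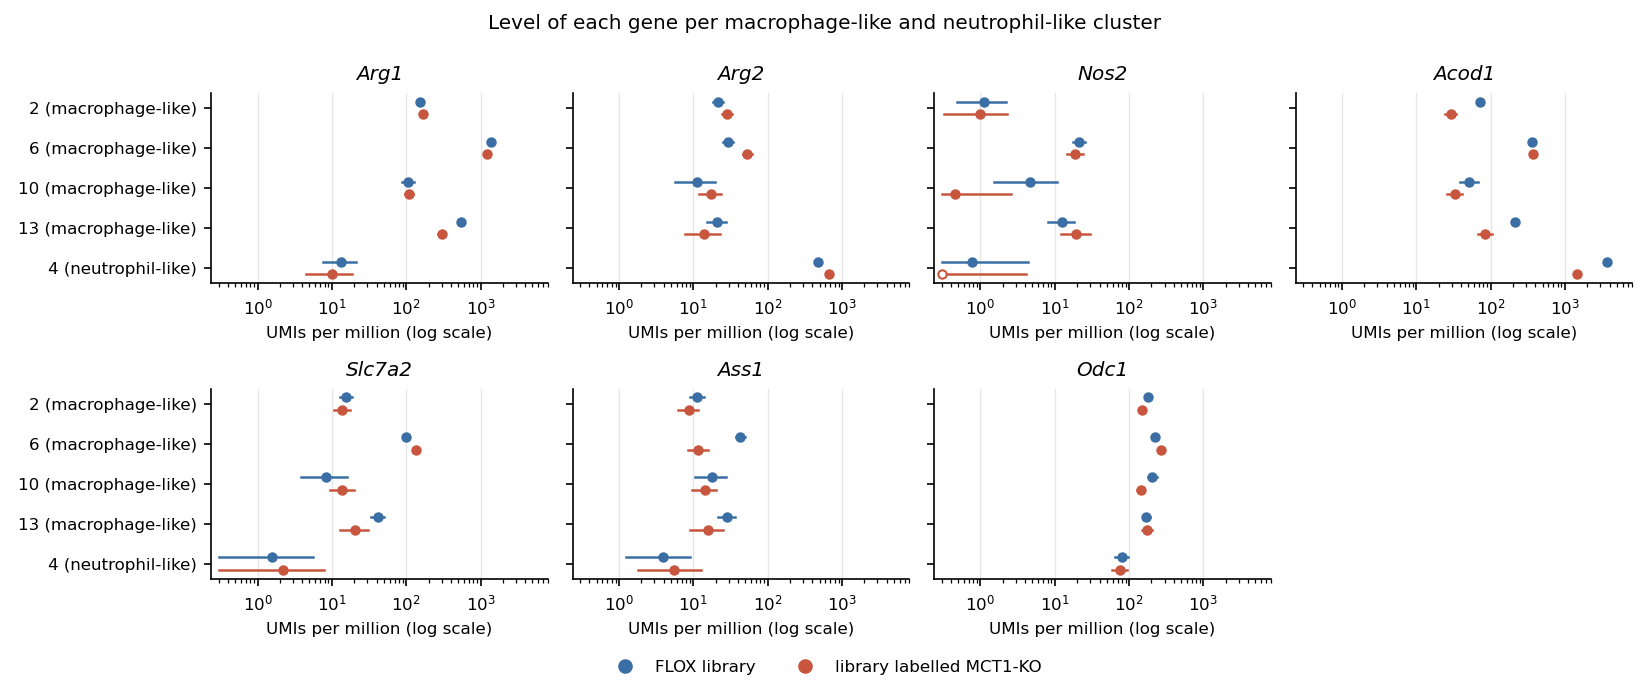
Level of each gene in CPM (log axis) in the 4 macrophage-like clusters and the neutrophil-like cluster, with 1 point per library and exact Poisson 95% intervals (open points at the edge: 0 UMIs). Among macrophage-like clusters cluster 6 has the highest Arg1 (1389 and 1234 CPM) and Acod1 (360 and 374 CPM) in both libraries.

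Within a class the UMIs were concentrated in some cells. Of macrophage-like cells, 217 (8.49%) and 150 (6.77%) had 10 or more Arg1 UMIs and held 81.8% and 72.9% of the class's Arg1, and the highest cell had 208 and 103. The median of cells with any Arg1 UMI was 3 in both libraries. For Acod1 in neutrophil-like cells, 190 (25.2%) and 16 (2.27%) had 10 or more UMIs, the median of cells with any was 6 and 2, and the highest cell had 36 and 17. In UMIs per cell as counted, the lower Arg1 level came with fewer and less extreme cells at the upper end. The lower Acod1 level came with a shift of the whole distribution. Cells of the library labelled MCT1-KO were also shallower, with a median of 1074 UMIs against 1471 in neutrophil-like cells and 4859 against 5906 in macrophage-like cells. These counts per cell were not set to equal depth, and the part of depth in them was not tested.

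**Figure D4:**
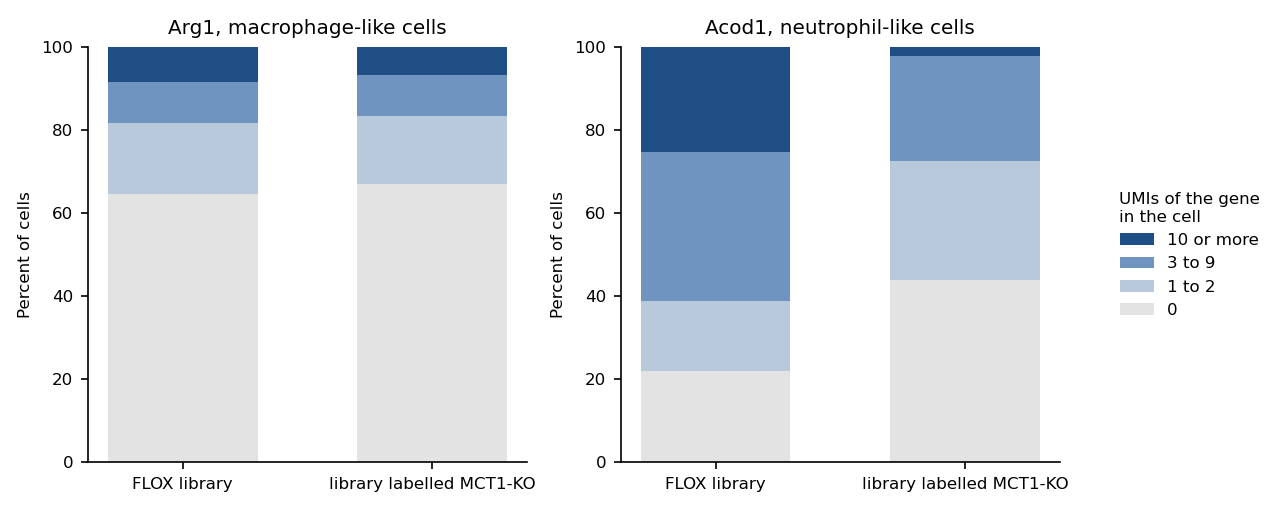
Share of cells (percent) with 0, 1 to 2, 3 to 9 and 10 or more UMIs of Arg1 in macrophage-like cells and of Acod1 in neutrophil-like cells, as stacked bars, 1 per library. Cells with 10 or more Acod1 UMIs are 25.2% of neutrophil-like cells in the FLOX library and 2.27% in the library labelled MCT1-KO.

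UMIs of Arg1 and Nos2, textbook markers of opposite activation states, were found under the same barcodes. Of macrophage-like cells with a Nos2 UMI, 60 of 73 and 31 of 41 also had an Arg1 UMI (82.2% and 75.6%), against 33.9% and 32.3% of cells without Nos2, an odds ratio of 9.0 and 6.51. Only 0.235% and 0.135% of macrophage-like cells had Nos2 with neither Arg1 nor Acod1. Deep cells detect both genes more often. After thinning to 1000 UMIs 13 of 17 and 5 of 10 cells with a Nos2 UMI also had Arg1, with odds ratios of 15.1 and 4.98. With all UMIs most cells with Nos2 thus also had Arg1, and at equal depth this was so in the FLOX library, from few cells. With at least 2 UMIs of each gene required, it was 23 of 30 and 11 of 14 cells. As a measured background, an Arg1 UMI was in 6.70% and 3.39% of ductal-like cells at a median depth of 18032 and 17880 UMIs, but the free RNA of macrophage-like cells also held Arg1, and its part in these pairs was not tested.

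Arg1 and Acod1 were together in 297 (11.6%) and 243 (11%) macrophage-like cells, where the product of their shares was 9.22% and 7.49%. The odds ratio was 1.70 and 2.35, and 1.38 and 2.5 after thinning. Cells with Arg1 and no Acod1 or Nos2 were 22.6% and 21.9%, cells with Acod1 alone of the 3 were 14.2% and 11.4%, and 1278 and 1222 cells had none of them. Acod1 and Nos2 were together in 41 and 34 cells, with odds ratios of 3.79 and 17.7, or 3.36 and 8.57 after thinning, each from 5 cells. Arg1 and its transporter Slc7a2 were together in 211 and 151 cells, with odds ratios of 5.19 and 4.55, or 3.08 and 5.86 after thinning. Each of these pairs was found together more often than the product of their shares in both libraries. The shares pool macrophage-like clusters that differ in these genes, and pairs within 1 cluster were not tested. Macrophage-like cells with a UMI of Arg1, Acod1, Nos2 or Slc7a2 also had more neutrophil and monocyte markers than those without. For Acod1 the neutrophil markers were at 552 against 395 CPM in FLOX and 743 against 291 in the other library.

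In neutrophil-like cells Arg2 and Acod1 were together in 293 and 211 cells. The odds ratio was 2.30 in the FLOX library and 1.29 in the library labelled MCT1-KO, and 2.38 and 1.28 after thinning to 1000 UMIs. These are descriptions of cells of 1 library each, which are not replicates.

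**Figure D5:**
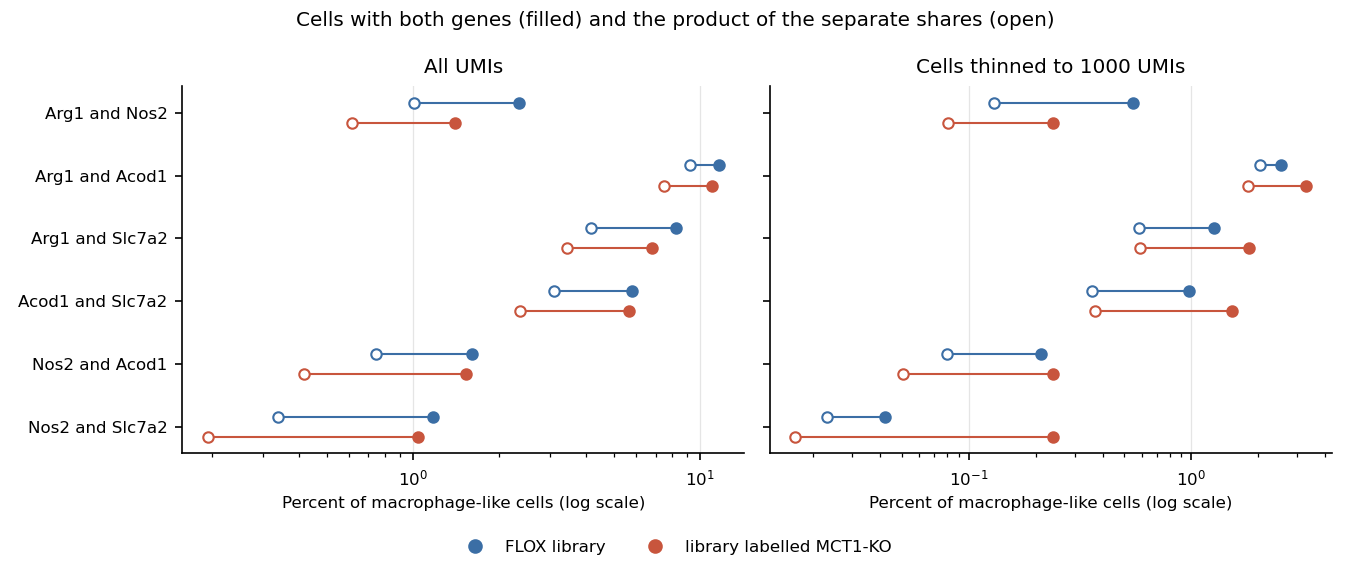
Percent of macrophage-like cells (log axes) with a UMI of both genes of a pair (filled) and the product of the 2 separate shares (open), by library, with all UMIs and after thinning to 1000 UMIs. In every pair shown the filled point lies to the right of its open point, as for Arg1 and Acod1 with all UMIs (11.6% beside 9.22% in the FLOX library).

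Other genes of arginine, polyamine and itaconate metabolism and their regulators, 60 measured, were counted at the same fold. In macrophage-like cells 52 had enough UMIs, and 0 were higher and 6 lower in the library labelled MCT1-KO, where 8.87% and 8.97% of all genes were, so the lower count was near the background. Among the 6 were Slc7a7 (0.625), which exports arginine from cells, Sat1 (0.597) and Smox (0.634), which break down polyamines, Gatm (0.422), which uses arginine to make the creatine precursor, and Atf3 (0.445), a stress-induced repressor. The 12 genes of itaconate and the neighbouring TCA cycle had 0 in either direction, with a median ratio of 1.11. In neutrophil-like cells 27 had enough UMIs, and 2 were higher and 3 lower, beside 14.6% and 10.4% of all genes. There Amd1 (1.67), a polyamine enzyme, and Nfkb1 (1.75), a subunit of NF-kB, were higher, and Slc3a2 (0.657), the heavy chain of amino acid transporters, Sat1 (0.597) and Atf3 (0.383) lower.

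T/NK-like cells, where Odc1 was higher, had 39 such genes with enough UMIs, of which 4 were higher and 1 lower, beside 6.33% and 9.44% of all genes. The higher ones were Slc7a6 (2.27), a transporter of arginine, Srm (1.59), which makes spermidine from the product of Odc1, Dohh (1.59), which completes the spermidine-derived hypusine of a translation factor, and Nfkb1 (1.55). In PSC-like cells, the cells aimed at, 2 of 47 were higher and 6 lower, beside 9.9% and 11.1% of all genes, so neither count stood out. Asl (1.56), the step after Ass1, and Gch1 (1.57), which makes a cofactor of nitric oxide synthase, were the higher ones, and Ddah1 (0.281) and Ddah2 (0.607), which clear inhibitors of that enzyme, Srm (0.566), Gatm (0.663) and Il4ra (0.351) were among the lower ones. In ductal-like cells 0 of 52 were higher and 6 lower, beside 4.75% and 7.24% of all genes, with Slc7a7 (0.522), Gatm (0.289), Sugct (0.632), Irf1 (0.510), a transcription factor, and Atf3 (0.525) among the lower. In ductal/PSC unnamed cells 0 and 5 of 52 were, beside 5.61% and 6.9%, with Slc7a7 (0.556), Pycr1 (0.655), a proline enzyme, Gatm (0.357) and Irf1 (0.461) among the lower. In dendritic-like cells 4 and 4 of 31 were, beside 9.24% and 12.7%. The higher were Gch1 (2.21), Ifngr1 (1.60), a receptor chain of interferon gamma, Nfkb1 (1.87) and Nfkbiz (1.72), an NF-kB cofactor, and Sat1 (0.645), Gatm (0.573) and Atf3 (0.558) were among the lower.

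The pattern over classes was compared with that of every other gene by Pearson's r of log2(CPM + 10) over 19 points from 11 classes, in which the libraries share their depth and free RNA. Arg1 was nearest to Msr1 (0.961), Mertk (0.961) and Syngr1 (0.958), Arg2 to Trem3 (0.991), C5ar2 and Sirpb1b, and Acod1 to Csf3r (0.979), Tarm1 and Cd300lb. Slc7a2 was nearest to Ldhb (0.968), Tmem119 and Lpar1, Nos2 to Scarf1 (0.956), Nus1 and Slco2b1, Odc1 to Ccar2 (0.896), Fundc2 and Atp2b4, and Ass1 to Limk1 (0.827), Serpina3g and Mrps16. Among the 7 genes themselves Arg2 and Acod1 were the most alike (0.959), followed by Arg1 and Slc7a2 (0.639). These are descriptions over classes, and points of 1 class from both libraries are not independent.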

How the data were processed

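Whole tumors were profiled as single cells, with 1 library per group (FLOX and MCT1-KO, from the labels). The deposited matrices hold raw UMI counts per gene and barcode, which the authors made with Fastp and SeekOneTools. The labels name a SeekOne MM kit and the methods droplet kits, and a human build (GRCh38) is named for a matrix of mouse gene IDs, so the mouse build is not given in the sources used here. How reads shared between gene copies or strands were counted is not given either. Seurat 4.0.0 is named in the submitters' processing notes.

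Barcodes with at least 500 UMIs, 200 to 5000 genes and at most 8% mitochondrial UMIs were kept, 8739 of 1437105 (FLOX) and 11689 of 1433633 (MCT1-KO). They held 34.5% and 53.9% of all UMIs, with a median of 4069 and 3706 per cell. The upper gene limit left out 2062 and 1231 barcodes. Doublets were not removed. Leaving out the cells nearest to simulated doublets was an alternative, with a limit set at 8% that took out 618 and 897 cells. Libraries were integrated by canonical correlation in Seurat 5.3.0 (R 4.3.3, with UMIs per cell regressed out, 2000 variable genes without the 7 genes and the pathway genes, 20 dimensions, resolution 0.8). A cluster took a class name when at least 3 of that class's listed markers were in at least 10% of its cells and at least 2-fold above the median of the other clusters, and when it led the next class by 0.25 on the log2 scale. These limits, and the ductal/PSC unnamed group, were set after the clusters were seen. Clusters 0, 1, 18 and 21 stayed unnamed (2186 and 3315 cells).

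UMIs were summed per class and library and given as CPM of the class, with exact intervals (scipy 1.17.1). Genes with at least 50 UMIs in a class over both libraries entered the 1.5-fold counts. Cells were thinned without replacement to 1000 or 2000 UMIs. The interval code was tested on simulated data. Pathway genes were named when past 1.5-fold, up to 8 per class. 1 gene that met this rule in several classes is not reported here. Free RNA was estimated from barcodes of 10 to 100 UMIs, taking the acinar UMIs of a class as free or, chosen after the data were seen, those of the list of another class that gave the lowest share. For likeness the 3 genes with the highest r were named, and for myeloid clusters the 5 leading genes. Of 61 pathway genes listed, 60 were in the matrices. The 7 genes, the lists and the tests were chosen with earlier results of these data known, so no pattern here is independent support.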

Additional observations from a re-analysis of the deposited data

Results flagged for a closer look

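Arg1 differed between libraries in opposite directions in different cell classes outside macrophage-like cells. The ratio of the library labelled MCT1-KO over the FLOX library was 2.38 in PSC-like cells (1.56 to 3.74), but 0.305 in T/NK-like cells (0.148 to 0.579), 0.571 in ductal-like cells (0.413 to 0.792) and 0.555 in ductal/PSC unnamed cells (0.425 to 0.722). With 1 library per group the difference between classes was not tested. The counts were 29 and 98 UMIs in PSC-like cells and 52 and 12 in T/NK-like cells, with 36 of the 52 in 1 cell, and 24 of the 98 in another. In cells with macrophage markers at or under 1000 CPM the ratio was 1.25 (0.674 to 2.42) in PSC-like cells and 0.805 (0.255 to 2.43) in T/NK-like cells.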

How the results depend on the processing

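No paired analysis was possible because each group had 1 library. The odds ratios were compared at 1.5-fold, and other values against their counting intervals. Acod1 in neutrophil-like cells (0.392) stayed below 1 under all 10 alternative settings (0.260 to 0.414), the lowest with free RNA subtracted (0.260). Ass1 in macrophage-like cells (0.455) stayed between 0.350 and 0.496 under the same 10 settings, and was 0.715 without cluster 6 and 0.273 in cluster 6 alone. Arg2 in neutrophil-like cells (1.4) reversed to 0.932 with free RNA subtracted by its acinar share, which exceeds what Arg1 in these FLOX cells allows, and was 1.41 with the lowest share, an alternative added after the data were seen. Slc7a2 in macrophage-like cells (1.08) went to 0.820 with the acinar share and 1.05 with the lowest. The Arg1 ratio in macrophage-like cells (0.789) was 0.842 with no upper gene limit, 0.842 without likely doublets, 0.889 without integration, 0.728 with classes set per cell, 0.602 with free RNA subtracted, 0.733 without cluster 6 and 0.889 in cluster 6 alone. The Acod1 ratio there (0.739) was 0.884 without likely doublets, 0.808 without integration, 0.567 with free RNA subtracted and 0.371 without cluster 6, and reversed to 1.04 in cluster 6 alone. The cause was not tested. The share of Arg1 UMIs in macrophage-like cells was 95.9% (FLOX) with a 1000 UMI minimum, 92.8% and 91.9% with no upper gene limit, 96.7% and 95.7% without likely doublets, 96.5% (FLOX) without integration, and 82.4% and 62.9% with classes per cell. The neutrophil-like share of Acod1 UMIs was 53.8% (FLOX) with no upper gene limit, 32.8% (the library labelled MCT1-KO) with a 1000 UMI minimum, 62.5% and 41.96% without likely doublets and 35.1% (MCT1-KO) with classes per cell. The odds ratio of Acod1 and Nos2 was 2.17 (FLOX) thinned to 2000 UMIs, and in the library labelled MCT1-KO 8.57 thinned to 1000 UMIs and 40.1 with at least 2 UMIs of each. That of Arg2 and Acod1 in neutrophil-like cells was 20.8 (FLOX) thinned to 2000 UMIs, where 96 cells were left. The splits by cluster, granule genes and macrophage markers were added after the data were seen. Counts limit Nos2 most, at 265 and 242 UMIs in all kept cells, and 1 library per group leaves differences between animals unmeasured.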

Other observations

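Plasma-like cells, few in both libraries (35 and 59), had 33 and 6 Arg1 UMIs, and 31 of the 33 in the FLOX library were in 1 cell. Acinar-like cells, 40 and 407, had 7 and 225 Odc1 UMIs, 91.2 and 168 CPM, a ratio of 1.84 (0.877 to 4.62). In endothelial-like cells Nos2 had a ratio of 1.30 (0.649 to 2.59) from 20 and 18 UMIs, and 11.3% and 6.12% of cells had one. Of the 24 pathway genes with enough UMIs in endothelial-like cells, 0 were higher and 6 lower by 1.5-fold, beside 7.06% and 14.2% of all genes. Among the lower were Sat1 (0.610), Eif5a (0.579), the factor that carries hypusine, Irf1 (0.543) and Atf3 (0.465), and Ddah1 at 0.603 (0.307 to 1.13), an interval that includes 1. The gene Atf3, a stress-induced repressor, had ratios of 0.383 to 0.816 in the 8 classes in which it was compared, which all come from the same 2 libraries, where the median ratio of all genes was 0.951 to 1.08. Heat shock genes were lower in 7 of these classes as well (0.547 to 0.710), though not in neutrophil-like cells (0.993), and their part was not tested.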
